A study of Mus musculus with 15 samples.

Results

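The retina of mice with oxygen-induced retinopathy (OIR) at postnatal day 13 (P13) was compared with the retina of normal mice at P9 (the comparison P13-O/P9-N). The samples were those whose title sets P9 wild-type retina against P13 OIR retina, which gave 3 arrays of the 15 in the series. The OIR pups were C57BL/6J mice kept in 75% oxygen from P7 and returned to room air at P12, so that at P13 they had been in room air for 1 day. The normal pups were wild-type C57BL/6J mice kept in room air from birth. Both groups carried no engineered allele, and "OIR" names the oxygen treatment. Each array set 1 RNA pool of P13 OIR retinas against 1 RNA pool of normal P9 retinas. Per the labels its values merge a dye-swap pair of hybridizations, which is counted as 1 array here. The study's methods describe the pools of its other comparisons as neural retinas of littermates, with different litters for different pools. The ratio therefore spans 4 days of age as well as the oxygen treatment, and these cannot be told apart within it. The study's methods do not describe this pairing. Whether its pools were also those of the comparisons P13-O/P13-N and P30-N/P9-N (P30, normal retina at P30) is not stated in the sources used here. The number of RNA samples those methods give is the number that the comparisons described there would use. If that number is complete, this pairing had no pools of its own.

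Between P9 and P13 the mouse retina is still being built: rods and cones grow their outer segments and the proteins of phototransduction, bipolar cells form synapses with them, and the last migrating and neurite-growing neurons mature. In the OIR model, high oxygen halts vessel growth and removes capillaries from the central retina, and the return to room air leaves that tissue hypoxic. Cells sense the lack of oxygen through the hypoxia-inducible factors (HIF), which are hydroxylated and degraded when oxygen is plentiful and otherwise switch on genes of glycolysis, pH control and vessel growth.

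Values are deposited log2 ratios, where 1 stands for a 2-fold difference. Positive values were read as higher in P13 OIR retina. This direction is likely rather than stated: the labels give OIR as the second channel on these arrays as on the other OIR arrays, and with the opposite direction rod genes would be lower in the older retina and Vegfa lower in the hypoxic one. With the opposite direction every sign below would turn. Because rod genes and Vegfa were used to read the direction, their sign below is not an independent result. The arrays held 17243, 21189 and 18348 values, and their pairwise correlations over probes were 0.42, 0.45 and 0.61. Array 1 stood furthest apart. Of 16296 probes measured on 3 arrays, array 1 had 35 at least 1 log2 unit above both other arrays and 55 at least 1 below both. The counts were 3 and 6 for array 2, and 13 and 5 for array 3. Genes of the lens, a tissue next to the retina, were among the probes above on array 1. Of 16 probes for lens membrane proteins, lens filament proteins and the alpha, beta and gamma crystallins, 10 were at least 1 log2 unit above both other arrays on array 1. Cryba2, a beta crystallin, had log2 ratios of 4.49, -0.24 and -0.74, and Mip, the lens water channel, had 3.33, -0.19 and 0.21. The median of these probes was 2.04 on array 1, -0.13 on array 2 and -0.19 on array 3, and none of them passed the test. The part of lens RNA in other results was not tested, and counts are given below with and without array 1.

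**Figure D1:**
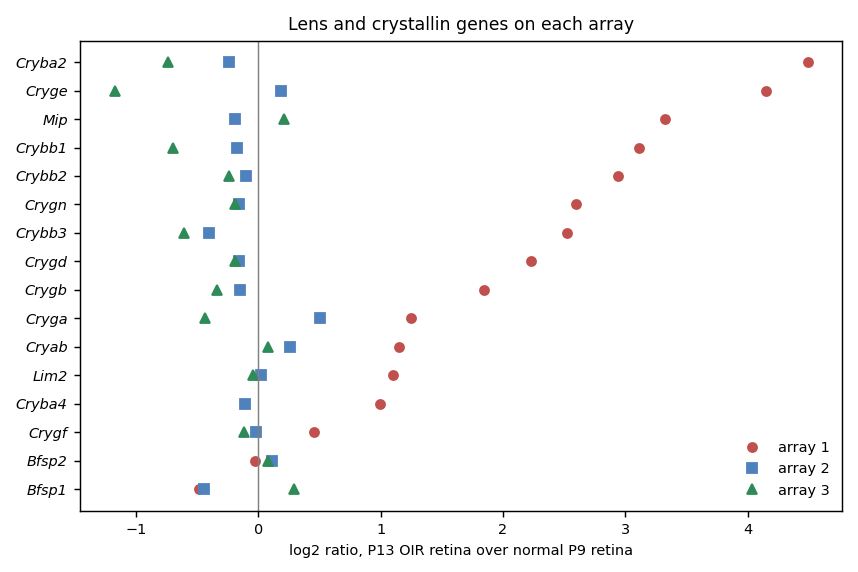
Log2 ratio (P13 OIR over normal P9, horizontal axis) of each lens and crystallin probe on the 3 arrays. Array 1 lies between -0.49 and 4.49, array 2 between -0.45 and 0.50 and array 3 between -1.17 and 0.29.

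A probe was called when its mean differed from 0 at a Benjamini-Hochberg adjusted p under 0.05 in limma's moderated test and by at least 1.5-fold. Of 18848 probes tested, 340 were higher in P13 OIR retina (1.80%) and 170 were lower (0.902%). Every one of these 510 probes had the same sign on each array that measured it. By gene, 261 of 11932 were higher (2.19%) and 134 lower (1.12%), and the median over all genes was -0.02. Without array 1 the counts were 275 probes higher and 123 lower. Of the called probes, 201 higher and 83 lower were also called without each array in turn.

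**Figure D2:**
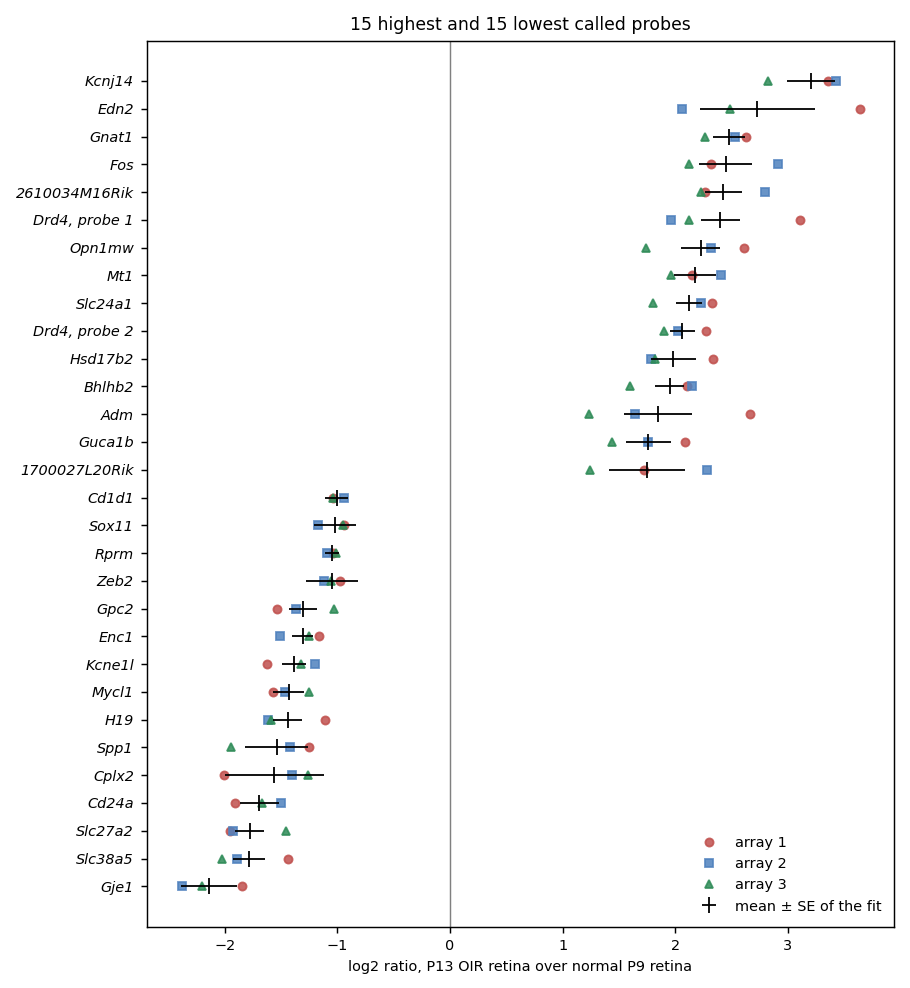
Log2 ratio (P13 OIR over normal P9, horizontal axis) of the 15 highest and 15 lowest called probes that were measured on 3 arrays. Points are single arrays and the bar is the mean with the standard error of the fit; the highest is Kcnj14 at a mean of 3.20 and the lowest is Gje1 at -2.14.

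The genes of rod phototransduction formed the largest group of higher genes among the markers of retinal neurons. Gnat1, the rod transducin alpha subunit that carries the signal from rhodopsin, had log2 ratios of 2.63, 2.53 and 2.27, all far above 0. Its mean was 2.48 ± 0.14 (SE, n = 3), or 5.57-fold, with an adjusted p of 6.6e-07. Slc24a1, the exchanger that removes calcium from the rod outer segment, had 2.33, 2.23 and 1.80 (mean 2.12 ± 0.11, adjusted p = 3.1e-07). Guca1b, a calcium sensor of the outer segment guanylate cyclases, had a mean of 1.76, and Pde6a, the catalytic alpha subunit of the rod phosphodiesterase, had a mean of 1.62. Of 31 measured rod genes, 15 were called higher and 0 lower, against 2.19% higher and 1.12% lower among all genes, and the median of the list was 0.57. Without array 1, 13 were called higher. Rgs9bp, the membrane anchor of the complex that shuts off transducin, had log2 ratios of 1.75, 0.64 and 0.99 and lost its call without array 1 (limma adjusted p = 0.13). Fscn2, a photoreceptor actin bundler, had 0.83, 0.36 and 0.61 and lost its call without array 1 (adjusted p = 0.12) and without array 3 (adjusted p = 0.072), as well as in the fit of these arrays alone, with scaling of the spread and with array weights. The transcription factors that specify rods were not called, with means of 0.20 for Nrl, 0.10 for Crx and -0.04 for Nr2e3. Esrrb, an orphan nuclear receptor expressed in rods, was higher at 1.58, 1.66 and 1.49 (mean 1.57 ± 0.08, adjusted p = 3.1e-07).

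Rod genes are known to be driven by Crx and Otx2, homeodomain factors that bind TAATCC. In the 250 bases before the start, 6 of the 9 called rod genes found in the promoter table held TAATCC on either strand (66.7%), against 1949 of 27025 genes in the whole table (7.21%). A match is a description of the letters and not a site in use. The 2 stretches below are those of the called rod genes with the largest probe means whose stretch holds the motif, shown 5′ to 3′ on the gene's strand with the motif in capitals (RefSeq, GRCm38.p6). Cnga1 encodes the channel opened by cyclic GMP in rods (chr5:72642753-72643002, minus strand), and Abca4 the outer segment retinoid transporter (chr3:122044210-122044459, plus strand, motif on the opposite strand). The called Cnga1 probe had log2 ratios of 0.95, 1.17 and 0.58 and its other probe, at a mean of 0.62, was not called. The higher of the 2 called Abca4 probes had 1.14, 0.70 and 0.73.
Cnga1: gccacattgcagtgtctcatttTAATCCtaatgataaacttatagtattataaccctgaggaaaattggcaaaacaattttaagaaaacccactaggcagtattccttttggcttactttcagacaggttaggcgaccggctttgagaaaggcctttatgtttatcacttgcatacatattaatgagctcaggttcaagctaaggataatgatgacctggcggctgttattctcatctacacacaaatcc
Abca4: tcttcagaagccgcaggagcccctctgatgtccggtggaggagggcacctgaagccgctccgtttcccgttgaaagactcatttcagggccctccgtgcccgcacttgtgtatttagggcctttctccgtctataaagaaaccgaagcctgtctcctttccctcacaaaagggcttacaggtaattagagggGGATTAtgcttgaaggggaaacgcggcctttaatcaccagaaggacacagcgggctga

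Cone genes were split. Opn1mw, the middle-wavelength cone opsin, had log2 ratios of 2.61, 2.32 and 1.74, with a mean of 2.23 ± 0.17 (adjusted p = 4.4e-06). Kcne2, a potassium channel beta subunit, and Kcnv2, a photoreceptor potassium channel subunit, were also higher, at 1.25 and 0.71. The other 9 of 12 measured genes of the list were not called: Gnat2, the cone transducin, was at 0.42 (adjusted p = 0.012, below the fold cutoff), and both probes of Arr3, the cone arrestin, were at -0.03 and 0.16. The share of higher genes among all genes was 2.19%. The 3 called cone genes were also called without array 1. Kcnj14, an inwardly rectifying potassium channel, had the highest mean of all called probes, with 3.36, 3.43 and 2.82 (mean 3.20 ± 0.22, 9.21-fold, adjusted p = 1.8e-06). Its 2 other probes were not called, at 0.62 and 0.40, so the size of the change at this gene depends on the probe. Drd4, the dopamine receptor of photoreceptors, was higher on both probes, at 2.40 and 2.06.

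Genes of the synapse that photoreceptors make and of the cells that read it were higher in smaller number. Cplx4, a complexin of photoreceptor ribbon synapses, had log2 ratios of 1.46, 1.17 and 1.02 (mean 1.22). Slc17a7, the vesicular glutamate transporter of photoreceptors and bipolar cells, had a mean of 0.85. Of 26 synaptic genes 4 were higher and 1 lower, against 2.19% higher and 1.12% lower among all genes, with a median of 0.15. Without array 1, 2 were higher and 0 lower. The lower one, Cplx2, had -2.01, -1.40 and -1.26 and lost its call whichever array was left out (limma adjusted p = 0.11 to 0.21). In bipolar cells, Gng13 and Rgs11, parts of the signalling chain below the glutamate receptor of ON bipolar cells, were higher at 1.04 and 0.97, among 11 measured markers with a median of 0.15. Gabrr2, a GABA receptor subunit of bipolar cells, was at 1.66. Among 18 markers of ganglion, amacrine and horizontal cells, 0 were higher and 1, Tcfap2b (now Tfap2b), was lower on 1 of 3 probes, with a call that was lost whichever array was left out.

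Part of the genes of growing neurons were lower in P13 OIR retina, 10 of 35 measured, against 1.12% lower among all genes. Cd24a, a surface glycoprotein of differentiating neurons, had log2 ratios of -1.91, -1.50 and -1.67, all below 0 by a wide margin. Its mean was -1.69 ± 0.17 (adjusted p = 3.4e-05). Nnat, neuronatin, an imprinted gene of developing brain, had -0.84, -1.08 and -1.07 (1.99-fold lower on average, adjusted p = 0.00020). The other lower genes of the neuronal growth and cytoskeleton list include Sox11 (-1.02 on 1 called probe of 3), Tubb2b (-0.72 and -0.91 on its 2 probes) and Marcksl1 (-0.90, -0.75 and -0.74 on its 3 probes). The median of the list was -0.29, and 11 were lower without array 1. The 1 higher gene was Tubb6, a beta tubulin, at 1.24, 0.84 and 0.64. Of 16 Notch and proneural genes, 4 were lower and 0 higher: Hes5 and Hes6 (both -0.83), repressors of the Hes family, Mfng (-0.79), a glycosyltransferase acting on Notch, and Dll3 (-0.65), a Notch ligand of the delta family. All 4 were also called without array 1. H19, an imprinted noncoding RNA of growing tissue, was at -1.11, -1.62 and -1.58, and the transcription factors Otx2 (-0.64) and Prdm1 (-0.79), which act in the choice of photoreceptor fate, were lower too. Without array 1 both fell short of the 1.5-fold cutoff, with means of -0.50 for Prdm1 and -0.57 for Otx2. The median of 20 genes of cell division was -0.06, and the 0 calls among them are near the share among all genes (2.19% higher and 1.12% lower).

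Hypoxia-inducible genes were higher. Vegfa, the main growth factor of endothelial cells, had log2 ratios of 1.31, 1.30 and 1.38, almost the same on every array. Its mean was 1.33 ± 0.12, or 2.51-fold (adjusted p = 1.5e-05). Adm, adrenomedullin, a vasodilating peptide, had 2.66, 1.64 and 1.24 (mean 1.85 ± 0.30, adjusted p = 0.0015). Edn2, endothelin 2, a vasoconstricting peptide made by stressed photoreceptors, had 3.65, 2.06 and 2.49 (mean 2.73 ± 0.51, adjusted p = 0.016), and its call was lost without array 1 (adjusted p = 0.092) or array 3 (adjusted p = 0.067). Egln1, the HIF prolyl hydroxylase that is itself a HIF target, was higher on all 3 probes, at 1.14, 1.14 and 1.01. Of 19 measured genes that the study names and that were listed here as hypoxia-inducible, 18 were higher and 0 lower, with a median of 0.99. The shares among all genes were 2.19% higher and 1.12% lower. Without array 1, 15 were higher. Rdx, at -0.05, was the 1 not called. The study reports all of these listed genes, Rdx included, as higher in P13 OIR retina than in normal retina of the same age. Their direction here is therefore not independent evidence.

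A further list of hypoxia targets that the study does not name had 14 of 28 measured genes higher, 1 lower and a median of 0.58. Higd1a, a mitochondrial protein induced by hypoxia, had 1.35, 1.84 and 1.42. Slc2a3, a neuronal glucose transporter, was at 1.19, and P4ha2, a collagen prolyl hydroxylase, at 1.14. Angptl4, an angiopoietin-like protein often induced by hypoxia, was lower on 1 probe (-0.86, -0.68 and -1.06), and its other probes at -0.03 and -0.27 were not called. Without array 1, 11 were higher. In glycolysis 10 of 14 measured genes were higher (median 0.71), 9 without array 1: Hk2 and Hk1, the hexokinases that commit glucose to the cell, were at 1.71 and, on 2 probes, 0.84 and 0.72, Gapdh at 1.25, Pfkl, the liver-type phosphofructokinase, at 0.82 and Eno2, the neuronal enolase, at 0.63. Several of these belong to the hypoxia lists too. Over 13 genes each, the glycolysis list had a median of 0.58 in P13-O/P13-N and 0.66 in P30-N/P9-N, which holds no oxygen treatment. Ldha, the lactate dehydrogenase A subunit, was at 0.20 and was not called. The 43 genes of the mitochondrial respiratory chain had a median of -0.06, and the 0 calls among them are near the share among all genes (2.19% higher and 1.12% lower). The genes of the oxygen sensor itself were not called apart from Egln1: Hif1a was at -0.27, 0.41 and 0.36, and Epas1, the HIF2 alpha subunit, at 0.72, 0.38 and 0.35.

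HIF binds DNA at ACGTG or GCGTG, the core of the hypoxia response element. Of the 26 called genes of the 2 hypoxia lists found in the promoter table, 22 held one of these 5-letter cores in the 250 bases before the start on either strand (84.6%), against 11226 of 27025 genes in the whole table (41.5%). The 2 stretches shown are those of the called genes with the highest means among the genes found in the promoter table, with the cores in capitals (CACGC is GCGTG on the opposite strand; RefSeq, GRCm38.p6, 5′ to 3′ on the gene's strand). Edn2 lies at chr4:120160956-120161205 (plus strand) and Adm at chr7:110627407-110627656 (plus strand).
Edn2: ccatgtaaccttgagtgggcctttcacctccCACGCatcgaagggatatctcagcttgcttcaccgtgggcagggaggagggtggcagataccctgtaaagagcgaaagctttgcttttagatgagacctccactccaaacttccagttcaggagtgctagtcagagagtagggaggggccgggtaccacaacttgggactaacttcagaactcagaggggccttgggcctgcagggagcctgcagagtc
Adm: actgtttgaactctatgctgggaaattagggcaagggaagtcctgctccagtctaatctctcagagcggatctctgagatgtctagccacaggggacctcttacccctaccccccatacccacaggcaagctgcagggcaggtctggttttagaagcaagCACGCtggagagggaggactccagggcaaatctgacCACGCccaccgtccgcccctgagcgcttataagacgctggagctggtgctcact

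**Figure D3:**
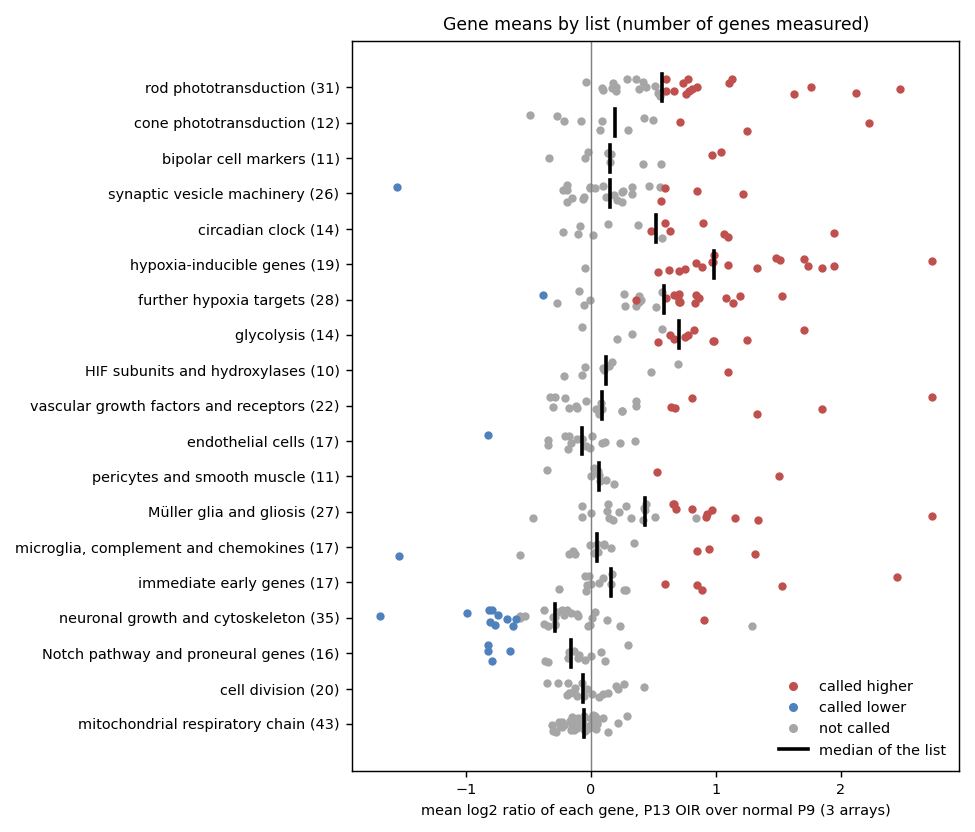
Mean log2 ratio of each measured gene (P13 OIR over normal P9, horizontal axis) by gene list, with the number of genes in parentheses and the list median as a black bar. The hypoxia-inducible genes have a median of 0.99, the rod genes 0.57 and the genes of neuronal growth -0.29.

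Vessel genes were called in both directions. Of 22 growth factors and receptors of vessels, 6 were higher and 0 lower, against 2.19% higher and 1.12% lower among all genes. Without array 1, 2 were higher. The 6 include Edn2, Adm and Vegfa. The other 3, Ctgf (now Ccn2), Fgf1 and Cyr61 (now Ccn1), had means of 0.81, 0.67 and 0.64 and each lost its call without array 1 and without array 2. Of 17 endothelial genes, Cldn5, the tight junction protein of brain and retinal capillaries, was the 1 called, at -0.76, -0.89 and -0.84 (mean -0.83 ± 0.08, adjusted p = 2.5e-05). Pecam1 and Cdh5, adhesion molecules found on all endothelium, were not called, with 0.06 on the Pecam1 probe measured on 3 arrays and -0.35 for Cdh5. In bulk retina fewer cells of a type and less RNA per cell cannot be told apart. Slc38a5, a glutamine transporter, had -1.44, -1.89 and -2.02 (mean -1.78 ± 0.14, adjusted p = 5.0e-06). Slc6a6, the taurine transporter, was higher, with a mean of 1.52 ± 0.15 (adjusted p = 2.5e-05). Of 11 genes of pericytes and smooth muscle 2 were higher. Vtn, vitronectin, a secreted adhesion protein, had 1.94, 1.16 and 1.42 (mean 1.51 ± 0.15, 2.84-fold, adjusted p = 3.3e-05) and was also called without each array in turn. Acta2, smooth muscle actin, was called on 1 probe at a mean of 1.07, with 1.95, 0.13 and 1.12, and the call was lost without array 1 or array 3. Its other probe was at -0.01 and was not called.

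Glial genes formed a mixed group. Vim, the intermediate filament of Müller glia, had log2 ratios of 1.09, 0.84 and 0.86 (mean 0.93 ± 0.13, adjusted p = 0.00046). Glul, glutamine synthetase, which clears glutamate in Müller cells, had 1.25, 1.70 and 1.07 (mean 1.34 ± 0.13, adjusted p = 2.9e-05), and Clu, clusterin, a secreted chaperone, was at 1.15. Of 27 genes of Müller glia and gliosis, 10 were higher and 0 lower, against 2.19% higher and 1.12% lower among all genes. The 10 include Edn2 and Anxa2, which were also counted among the hypoxia-inducible genes above. The median of the list was 0.43, and 4 were called higher without array 1. Gfap, the classic marker of gliosis, was measured on 2 arrays at 1.55 and 0.13 and was not called. Among 17 genes of microglia and inflammation, Ccl4 (1.31) and Ccl12 (0.85), chemokines that attract monocytes, and Lgals3, a galectin of activated phagocytes (0.95), were higher, while Spp1, osteopontin, was lower at -1.25, -1.42 and -1.95. Ccl12 lost its call without array 1 (adjusted p = 0.098).

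Several fast-responding genes were also higher. Fos, an immediate early transcription factor, had 2.32, 2.91 and 2.13 (mean 2.45 ± 0.24, adjusted p = 2.5e-05), and Egr1, another, had 1.18, 2.23 and 1.18. Of 17 immediate early genes, 5 were higher and 0 lower (median 0.16), against 2.19% higher and 1.12% lower among all genes. Without array 1, 4 were higher. Mt1 and Mt2, metallothioneins that bind zinc, were at 2.17 and 1.43, while Mt3, another, was at -0.52 and was not called. Of 18 genes of metallothioneins and oxidative stress, 4 were higher and 1 lower (median -0.13), and 2 were higher without array 1. The hour of collection, which matters for clock genes, is not given in the sources used here. In the circadian clock list, 7 of 14 measured genes were higher and 0 lower (median 0.52), and 7 were also higher without array 1, with Tef, an output factor of the clock, called in place of Nr1d1. Dbp, an output gene of the clock, had 1.07, 1.20 and 1.01 (mean 1.09 ± 0.06, adjusted p = 6.6e-07), Per2, a period repressor, was at 1.07, Per3, another, was at 0.93 on its called probe and 0.03 on the other, and Bhlhb2 (now Bhlhe40), a repressor that is also induced by hypoxia, was at 1.95. Arntl and Clock, the activators of the loop, were not called, at -0.09 for Arntl and -0.40 and 0.18 on the 2 Clock probes.

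The same genes were then read beside 2 other comparisons of the series with one limma fit. P13-O/P13-N, OIR retina over normal retina at P13, holds age constant. P30-N/P9-N, normal P30 over normal P9 retina, holds no oxygen treatment. Whether they share pools with P13-O/P9-N is not stated, so each comparison's values are given side by side and the difference is tested. The fit took all arrays as independent. With shared pools, the intervals and adjusted p-values of the differences would not hold as given. Near values in 2 comparisons could then come partly from the same RNA. The P13-O/P9-N ratio minus the P13-O/P13-N ratio is an indirect estimate of normal P13 over normal P9. Of 14398 probes with both ratios, 261 had a higher ratio in P13-O/P9-N than in P13-O/P13-N (1.81%) and 144 a lower one (1.00%). By gene this was 213 (2.20%) and 107 (1.10%) of 9686.

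Of the rod genes 15 of 29 differed between P13-O/P9-N and P13-O/P13-N, and most of the hypoxia genes did not pass the test of a difference. Gnat1 averaged 2.48 in P13-O/P9-N, against -0.15 in P13-O/P13-N and 3.25 in P30-N/P9-N, and the difference of 2.63 from P13-O/P13-N (95% interval 2.20 to 3.06) had an adjusted p of 1.1e-05. All 15 of the rod genes that differed had a higher ratio in P13-O/P9-N. Vegfa averaged 1.33 in P13-O/P9-N, against 1.22 in P13-O/P13-N and -0.42 in P30-N/P9-N, and its difference from P13-O/P13-N was 0.11 (interval -0.25 to 0.47, adjusted p = 0.82). Of 18 hypoxia-inducible genes with a tested difference, 2 were higher in P13-O/P9-N and 0 lower: Hk2, at 1.71 against 0.62 (difference 1.08, interval 0.69 to 1.47), and Bhlhb2, at 1.95 against 0.76 (difference 1.19, interval 0.81 to 1.57). Both were also higher in P30-N/P9-N, at 3.35 and 2.06. The study reports the listed hypoxia-inducible genes as higher in P13-O/P13-N, the arrays that this difference subtracts. That selection favours few positive differences, so the count cannot be set against that of the rod genes. For Edn2 the interval of the difference ran from -1.69 to 1.64, so neither the size nor the direction of a difference was determined.

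Part of the clock genes and of the glial genes differed between the comparisons. Among all genes, 2.20% had a higher ratio in P13-O/P9-N than in P13-O/P13-N and 1.10% a lower one. Of 26 genes of Müller glia and gliosis, 4 had a higher ratio and 1 a lower one. Dbp averaged 1.09 in P13-O/P9-N, against -0.11 in P13-O/P13-N and 1.47 in P30-N/P9-N (difference from P13-O/P13-N 1.21, interval 1.02 to 1.39, adjusted p = 7.4e-06), and 7 of 12 clock genes had a higher ratio in P13-O/P9-N. Vim averaged 0.93, against 1.11 in P13-O/P13-N and -0.82 in P30-N/P9-N, and Anxa2, an annexin of membranes, averaged 0.97, against 1.14 and -0.46. Glul averaged 1.34, against -0.68 in P13-O/P13-N and 2.31 in P30-N/P9-N (difference from P13-O/P13-N 2.02, interval 1.63 to 2.42). Among genes of neuronal growth, 10 of 33 had a lower ratio in P13-O/P9-N than in P13-O/P13-N and 0 a higher one. Sox11 averaged -1.02 in P13-O/P9-N, against 0.38 in P13-O/P13-N and -1.49 in P30-N/P9-N. Of 13 immediate early genes, 2 had a higher ratio in P13-O/P9-N than in P13-O/P13-N and 1 a lower one. Egr1 was higher in P13-O/P9-N (1.53) than in both others (-0.10 in P13-O/P13-N and 0.26 in P30-N/P9-N), with limma adjusted p of 0.018 and 0.039 for the differences. Fos averaged 2.45, against 0.80 in P13-O/P13-N and 2.20 in P30-N/P9-N. Its differences were 1.65 from P13-O/P13-N (adjusted p = 0.0095) and 0.25 from P30-N/P9-N (adjusted p = 0.69).

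**Figure D4:**
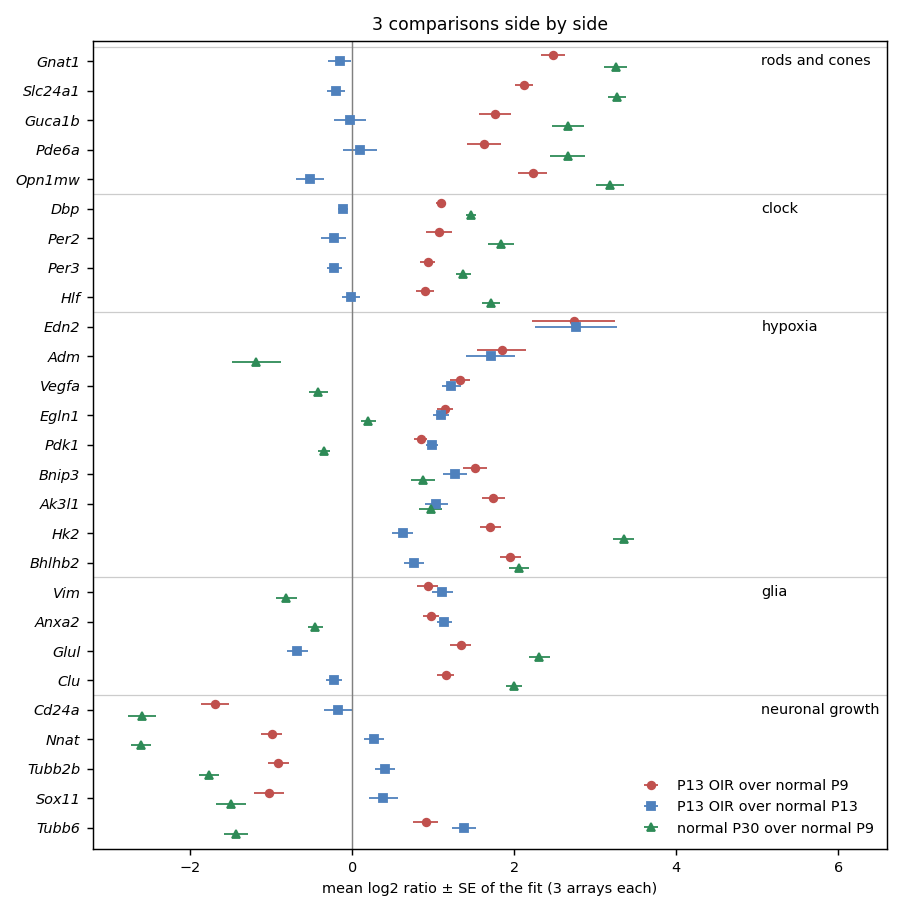
Mean log2 ratio with its standard error (horizontal axis) of selected genes in P13-O/P9-N, P13-O/P13-N and P30-N/P9-N, 3 arrays each; where a gene has several probes, the one farthest from 0 in P13-O/P9-N is shown. Gnat1 is at 2.48, -0.15 and 3.25, while Vegfa is at 1.33, 1.22 and -0.42.

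**Figure D5:**
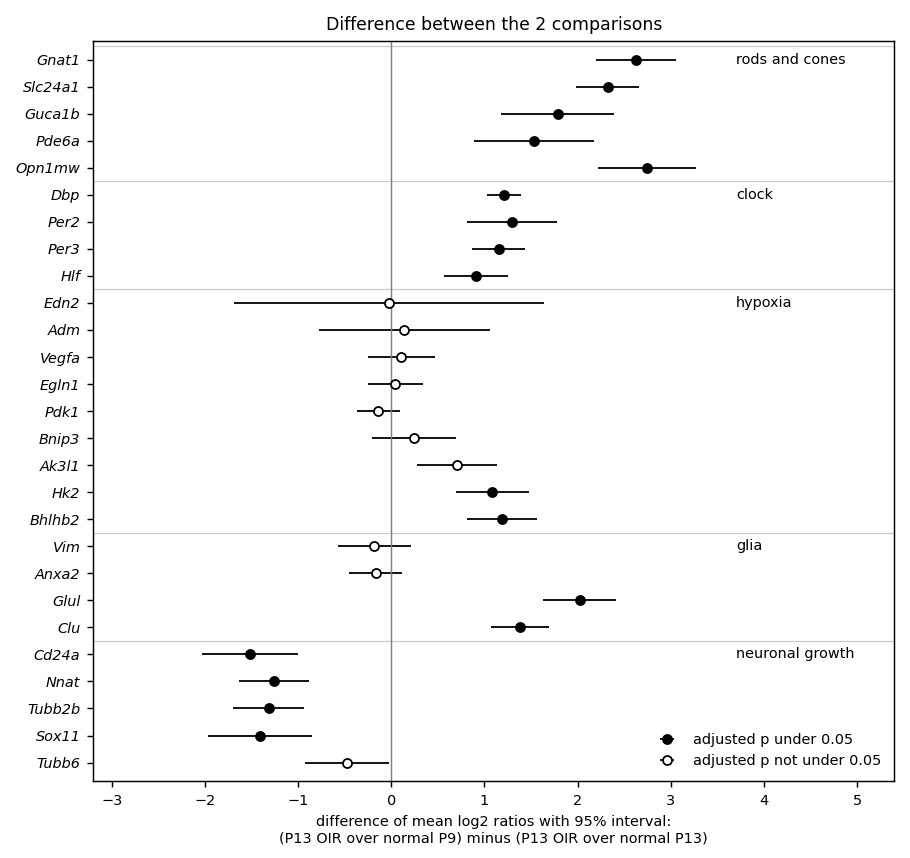
Difference of the mean log2 ratios, P13-O/P9-N minus P13-O/P13-N (horizontal axis), with 95% intervals for the same probes. Filled points have an adjusted p under 0.05; Gnat1 is at 2.63 and Vegfa at 0.11.

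Against normal P30 retina, taken through normal P9 retina as the common reference, P13-O/P9-N had a higher ratio than P30-N/P9-N at 394 of 13798 probes (2.86%) and a lower one at 332 (2.41%). By gene this was 312 (3.35%) and 235 (2.52%) of 9318. With every array scaled to the same spread the probe counts were 126 and 75. Adm had the largest positive difference among probes measured on every array of both comparisons and carrying a symbol, at 1.85 in P13-O/P9-N against -1.18 in P30-N/P9-N (difference 3.03, interval 2.11 to 3.95, adjusted p = 0.00057). Mef2c, a transcription factor of maturing rods, had the largest negative one, with log2 ratios of 0.74, -0.17 and 0.24 in P13-O/P9-N and a mean of 0.27, against 3.95 in P30-N/P9-N (adjusted p = 7.3e-06). Both Arr3 probes were lower too, at -0.03 and 0.16 against 1.88 and 2.23. Of 29 rod genes, 7 had a lower ratio in P13-O/P9-N than in P30-N/P9-N and 0 a higher one, and of 33 genes of neuronal growth 12 had a higher ratio and 1 a lower one. Of 17 hypoxia-inducible genes, 10 had a higher ratio in P13-O/P9-N and 1, Hk2, a lower one. These genes were listed because the study reports them as higher in P13 OIR retina, so this count is not independent evidence either.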

How the data were processed

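RNA pools of P13 OIR and normal P9 mouse retina were compared on 2-colour Phalanx Mouse OneArray arrays (3 of 15 arrays). The deposited table holds 1 normalized log2 ratio per probe and array, which the authors made from dye-swap scans; the normalization and the rule for blank values are not given in the sources used here. Of 29922 probes, 21020 had 1 gene symbol, updated through RefSeq. Values were used as deposited and read as OIR over normal. Ratio arrays give no counts, so the number of arrays limits precision.

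limma 3.58.1 (R 4.3.3) fitted a mean per comparison over all 15 arrays. A probe was tested with values on at least 2 arrays of the comparison and called at a Benjamini-Hochberg adjusted p under 0.05 and 1.5-fold; p-values are two-sided. A gene was higher with at least 1 probe higher and none lower, and its mean was taken over probes. The fit was tested on simulated data. Per the methods, pools of the other comparisons came from separate litters; this is not stated for these arrays, so p-values may measure technical spread only. Same-numbered arrays of P13-O/P9-N and P13-O/P13-N had deviations correlating at 0.21, -0.03 and 0.19, so numbers were not taken as pairs.

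Named genes were the 15 highest and 15 lowest called probes with 1 sign on 3 arrays, up to 6 called genes of each list, members of lists of at most 20 genes, genes the study tabulates, the 8 highest and 8 lowest probes per difference, and genes with a printed promoter; Nrl, Crx, Nr2e3, Fscn2, Gfap, Pecam1 and Cdh5 were added after their values were seen. Members and lists were chosen with earlier results of these data known. Alternatives were a fit of the compared arrays alone, the study's SAM (false discovery rate 1%), median centring, scaling of the spread, complete probes only, array weights, no fold cutoff, a replicate block and leaving out each array.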

Additional observations from a re-analysis of the deposited data

How the results depend on the processing

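The counts of probes higher and lower in P13-O/P9-N were 292 and 198 in a fit of its arrays alone, 377 and 210 with array weights and 292 and 166 by SAM, which shared 412 of its calls with limma. They ran from 275 to 327 and from 123 to 166 when 1 array was left out. Without the fold cutoff they were 863 and 752. For the difference from P13-O/P13-N the counts without the fold cutoff were 466 and 290, and leaving out 1 array gave 212 to 243 and 109 to 132. For the difference from P30-N/P9-N they were 731 and 725 without the fold cutoff, 615 and 522 with array weights, 126 and 75 after giving each array an equal median absolute deviation, and 296 to 469 and 243 to 426 when 1 array was left out. The cause of these shifts was not tested, beyond the cutoff itself. With the replicate number as a block the counts were 333 and 164 in P13-O/P9-N, 241 and 140 for the difference from P13-O/P13-N, and 388 and 314 for the difference from P30-N/P9-N; the numbers did not pair the arrays, and the block changed the call of 0 of 123 called named probes. None of these probes changed sign under any setting run, but each had 1 sign on every array that measured it. Leaving out, scaling or weighting arrays could therefore not turn a sign. The called named probes not past both thresholds were 22 without array 1, 14 without array 2 and 11 without array 3. They were 8 in the fit alone, 4 with scaling and 3 with array weights. With 3 arrays, a probe whose arrays differ widely, such as Edn2, passes or fails with 1 array.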

Other observations

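Some of the largest differences fell outside the gene groups above. Hsd17b2, a hydroxysteroid dehydrogenase that inactivates sex steroids, had log2 ratios of 2.34, 1.79 and 1.82 in P13-O/P9-N (limma adjusted p = 3.5e-05) and averaged 1.58 in P13-O/P13-N and -0.01 in P30-N/P9-N. 1700027L20Rik (now Prss56), a serine protease, had 1.73, 2.28 and 1.25 and averaged 2.00 in P13-O/P13-N and -0.76 in P30-N/P9-N; its call was lost without array 2 (limma adjusted p = 0.062). 2610034M16Rik (now Pdzph1) had 2.26, 2.79 and 2.23 and averaged -0.55 in P13-O/P13-N and 3.85 in P30-N/P9-N.

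At the low end, Gje1, a member of the gap junction protein family, had -1.85, -2.38 and -2.20 in P13-O/P9-N and averaged 0.37 in P13-O/P13-N and -2.72 in P30-N/P9-N. Slc27a2, a fatty acid transporter and very long chain acyl-CoA synthetase, had -1.96, -1.92 and -1.45. Enc1, an actin-binding protein of developing neurons, had -1.16, -1.51 and -1.25, and Gpc2, a glypican of growing axons, had -1.53, -1.36 and -1.03. Crym, a thyroid hormone-binding protein that is named for the lens but also found in brain, had -0.53, -0.78 and -0.79, averaged 0.48 in P13-O/P13-N and -2.47 in P30-N/P9-N, and did not share the high value of the lens crystallins on array 1.

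Zeb2, a zinc finger repressor, had -0.98, -1.12 and -1.06, and its call was lost without array 1, 2 or 3 in turn. Sat1, the enzyme that acetylates polyamines for export, was at -0.65, against 0.54 in P13-O/P13-N and -1.53 in P30-N/P9-N. Spag5, a spindle protein, was at 0.72, against -0.66 in P13-O/P13-N and 2.67 in P30-N/P9-N. The medians of 14 cholesterol genes and 11 cytosolic ribosomal protein genes were 0.04 and -0.15, and the 0 calls among them are near the share among all genes (2.19% higher and 1.12% lower).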
